A study of Mus musculus with 6 samples.

Results

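The genes of fatty acid uptake and mitochondrial β-oxidation were measured by RNA-seq in mouse gastrocnemius (GAS) muscle with and without the muscle deletion of *Sirt6*, which encodes an NAD+-dependent deacetylase. The list holds 35 genes in 9 steps, out of 24532 genes in the count table. They were chosen by their textbook role, but with earlier results of these data known. The list takes in uptake (*Cd36*, *Lpl*, *Fabp3*, *Slc27a1*, *Slc27a4*), acyl-CoA synthesis (*Acsl1*, *Acsl3*, *Acsl4*, *Acsl5*, *Acsl6*), the carnitine shuttle (*Cpt1a*, *Cpt1b*, *Cpt2*, *Crat*), the acyl-CoA dehydrogenases (*Acadm*, *Acads*, *Acadl*, *Acadvl*) and the hydratase, hydroxyacyl-CoA dehydrogenase and thiolase steps (*Hadh*, *Hadha*, *Hadhb*, *Echs1*, *Acaa2*). It further takes in the auxiliary enzymes for unsaturated chains (*Eci1*, *Eci2*, *Decr1*), the electron transfer flavoprotein and its oxidoreductase (*Etfa*, *Etfb*, *Etfdh*), acyl-CoA thioesterases and malonyl-CoA decarboxylase (*Acot2*, *Acot13*, *Mlycd*) and the lipases of stored triglyceride (*Pnpla2*, *Lipe*, *Mgll*).

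The animals were male C57BL/6 mice of about 20 weeks, 3 per group, with 1 library per animal. The WT mice carried Sirt6 flox/flox without Cre, and the *Sirt6* KO mice carried Myl1-Cre; Sirt6 flox/flox, so the floxed alleles were shared by both groups and Cre was present in the KO group only, where its effect and that of the deletion cannot be told apart. Myl1-Cre is knocked into the *Myl1* locus and is active mainly in postmitotic fast (type II) fibres, so slow fibres and the non-muscle cells of the tissue are not its main target. Libraries are named here WT 1 to WT 3 and KO 1 to KO 3 by their labels. *Sirt6* itself went against these labels. Its level in normalized CPM (counts scaled to library size after TMM normalization) was 2.77, 2.23 and 2.88 in WT 1 to 3 and 7.81, 7.44 and 6.68 in KO 1 to 3. The log2 difference was 1.48 (SE 0.17), with an adjusted p of 0.0113 by edgeR's quasi-likelihood test, and the call was lost without KO 1 or without KO 3 (edgeR adjusted p 0.0606 and 0.065). The *Sirt6* difference was 1.43 and 1.54 in those fits. Few of all genes were called there, 2 lower and 6 higher without KO 1 and 5 lower and 8 higher without KO 3. Counts per gene do not separate reads inside and outside the floxed exons. KO therefore means "labelled *Sirt6* KO" throughout.

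Long-chain fatty acids reach a muscle fibre from circulating lipoprotein triglyceride, which lipoprotein lipase splits at the capillary wall, and from droplets inside the fibre, which adipose triglyceride lipase opens. CD36 and the FATP proteins take them across the membrane, FABP3 carries them in the cytosol, and acyl-CoA synthetases activate them. Carnitine palmitoyltransferase 1 (CPT1) on the outer mitochondrial membrane then commits the acyl chain to oxidation and is held back by malonyl-CoA. In the matrix the chain is shortened in repeated turns of dehydrogenation, hydration, dehydrogenation and thiolysis. The electrons of the first dehydrogenation pass through the electron transfer flavoprotein to the respiratory chain. Slow, oxidative fibres are known for higher levels of this machinery than fast, glycolytic fibres. In a whole muscle, fewer cells of a type and less RNA per cell cannot be told apart.

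All 35 genes passed the filter on low counts, together with 13801 genes in all. Library totals ran from 44845763 to 63016899 counts, so that 1 count corresponded to between 0.0165 and 0.0212 CPM. The 6 libraries differed in fibre-type markers more within the groups than between them. The summed level of 10 slow-fibre genes was 4214, 3475 and 164 CPM in WT 1 to 3 and 426, 2471 and 584 CPM in KO 1 to 3. *Myh7*, the slow myosin heavy chain, ranked the libraries in the same order, with 1138, 958 and 21.7 CPM in the WT libraries and 100, 720 and 163 CPM in the KO libraries. All 10 slow-fibre genes were detected and 9 were lower on average in KO. With the group alone, none passed in edgeR or DESeq2 or had an unadjusted p below 0.05 in edgeR. With the mean level of these 10 genes in the model, edgeR called *Tnni1* and *Myh7b* higher and *Tpm3* lower, but these genes are themselves part of that mean. WT 3 thus stood apart from WT 1 and WT 2, and KO 2 from KO 1 and KO 3, and the main results are given with and without these markers in the model or with and without WT 3. The 10 fast-fibre genes summed to between 135345 and 216779 CPM in WT and between 195420 and 229631 CPM in KO. All were detected and none passed in edgeR with the group alone (1 was higher at an unadjusted p below 0.05, and DESeq2 called 2 higher). Without WT 3, edgeR called *Myh4*, *Tnni2*, *Tnnc2*, *Actn3*, *Atp2a1*, *Casq1* and *Mylpf* higher and *Myh1* lower. With the slow-fibre level in the model, it called *Tnnc2*, *Actn3* and *Atp2a1* higher and *Myh1* lower. The tissue thus carried the markers of skeletal muscle in every library.

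2 of the 35 genes passed the test between the groups: *Cpt1a* rose and *Decr1* fell in KO. Of all 13801 genes tested, 7.85% were called higher and 8.39% lower at an adjusted p below 0.05, against 2.86% of the 35 in either direction. The other 33 genes did not pass. By sign alone, 25 of the 35 were lower and 10 higher, which is 71.4% lower against 51.6% of all genes tested. The median log2 difference (KO minus WT) over the 35 was -0.27, with a range from -1.80 to 1.12, and it was -0.02 over all genes. At an unadjusted p below 0.05, 11 were lower and 2 higher, or 31.4% and 5.71%, against 18.1% and 17.2% of all genes. Below, a difference that did not pass is given as a value only.

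**Figure D1:**
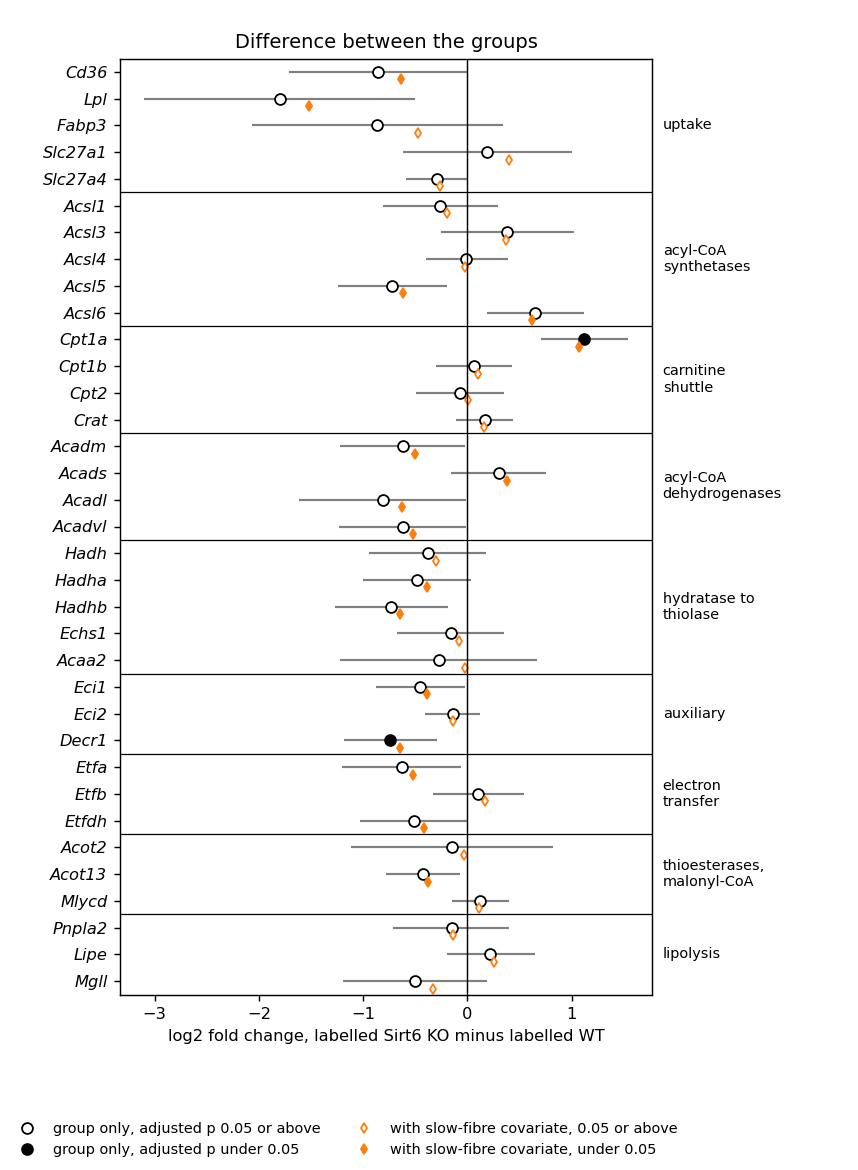
Difference between the groups for each of the 35 genes, as the log2 fold change of libraries labelled *Sirt6* KO over those labelled WT (x axis) with its 95% confidence interval; circles are from the model with the group alone and orange diamonds from the model that also holds the slow-fibre level, and filled symbols have an edgeR adjusted p below 0.05. Only *Cpt1a* (1.12) and *Decr1* (-0.74) are filled circles, while 16 diamonds are filled, 13 of them left of 0.

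*Cpt1a* and *Cpt1b* encode the CPT1 isoforms first described in liver and in muscle. *Cpt1a* (NCBI gene 12894, chr19:3322326-3385735 in GRCm38) stood at 10.4, 13.0 and 13.9 CPM in WT 1 to 3 and at 31.6, 21.6 and 28.2 CPM in KO 1 to 3. Every KO library was above every WT library. The means were 12.4 ± 1.78 and 27.1 ± 5.08 CPM (SD, n = 3 each), and the log2 difference of 1.12 (SE 0.18, 95% interval 0.71 to 1.54) had an adjusted p of 0.0143 by edgeR's quasi-likelihood test. The call was kept in 12 of 15 alternative analyses and lost without KO 1, without KO 3 or without WT 2, where edgeR adjusted p values were 0.0612, 0.0723 and 0.0534. In those fits 6, 8 and 96 of all genes were called higher. *Cpt1b* (NCBI gene 12895, chr15:89416405-89425862) stood at 291, 323 and 253 CPM in WT and at 260, 348 and 297 CPM in KO. The groups overlapped, and the log2 difference was 0.06 (SE 0.16, 95% interval -0.30 to 0.43, edgeR adjusted p 0.798). Its sign was negative under the GC correction, without KO 2 and without WT 3. *Cpt1b* shares its locus with a non-coding gene, and the strand setting of the counting is not given in the sources used here.

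Per unit length, *Cpt1b* was by far the larger isoform. Its mean over the 6 libraries was 216 TPM (transcript abundance per length, scaled to a fixed sum per library), against 9.54 TPM for *Cpt1a*. The share of *Cpt1a* in the summed TPM of both was 2.36%, 2.64% and 3.55% in WT 1 to 3 and 7.55%, 4% and 6.0% in KO 1 to 3. No KO library overlapped the WT libraries in this share. The means were 2.85% ± 0.625 and 5.85% ± 1.78 (SD, n = 3 each), with an exact two-sided permutation p of 0.1, the smallest that 3 libraries against 3 allow, and 0.35 after adjustment over 7 isoform shares. The remaining carnitine genes differed less. *Crat*, the carnitine acetyltransferase that buffers short acyl groups, was the most abundant of the shuttle per length and stood at 542, 573 and 583 CPM in WT and at 642, 646 and 616 CPM in KO. All 3 KO libraries were above all 3 WT libraries, but the log2 difference of 0.17 (SE 0.12) had an edgeR adjusted p of 0.345 and was -0.00137 under the GC correction. *Crat* overlaps *Dolpp1* in the annotation. *Cpt2*, the partner of CPT1 on the inner membrane, had a log2 difference of -0.07 (SE 0.18). The summed TPM of the 4 shuttle genes was 618, 637 and 475 in WT and 567, 604 and 552 in KO, so the change of *Cpt1a* hardly moved the sum.

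*Cpt1a* was called higher, and the dehydrogenase gene *Acadm* was lower on average without passing in edgeR. The 250 bases before 1 start site of each are shown (RefSeq, GRCm38.p6, 5′ to 3′ on the strand of the gene), and a link of these bases to the levels was not tested. Capitals mark matches on either strand to the letters AGGTCA (the nuclear receptor half-site), TGACG (the half-site of the cyclic AMP response element) and GGGCGG (the Sp1 box); chr19:3323051-3323300 is on the plus and chr3:153944644-153944893 on the minus strand. The *Cpt1a* start site used is the one in the promoter table and lies 975 bases downstream of the outermost start of the gene, so its window is inside the gene interval given above, with 16 of its bases in a GENCODE M21 exon.
Cpt1a: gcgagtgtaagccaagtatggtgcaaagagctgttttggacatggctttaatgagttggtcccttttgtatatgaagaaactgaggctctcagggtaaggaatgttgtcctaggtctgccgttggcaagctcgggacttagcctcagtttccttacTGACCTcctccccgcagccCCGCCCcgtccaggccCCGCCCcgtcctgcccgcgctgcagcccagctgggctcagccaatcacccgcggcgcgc
Acadm: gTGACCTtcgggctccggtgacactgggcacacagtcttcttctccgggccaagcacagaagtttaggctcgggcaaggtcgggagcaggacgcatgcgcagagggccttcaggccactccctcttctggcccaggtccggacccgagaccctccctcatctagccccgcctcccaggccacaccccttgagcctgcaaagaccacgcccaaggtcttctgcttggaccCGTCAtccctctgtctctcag
The *Cpt1a* window held 1 nuclear receptor half-site and 2 Sp1 boxes, and the *Acadm* window 1 nuclear receptor half-site and 1 half-site of the cyclic AMP response element. In the table of GRCm38 promoters 29 of the 35 genes had an entry, and *Lpl*, *Cpt1b*, *Crat*, *Acaa2*, *Decr1* and *Acot13* had none. Windows with AGGTCA belonged to 6 of the 29 genes (20.7%, against 15.8% of all 27025 genes in the table, counting a gene with a match in any of its windows). Those with TGACG also belonged to 6 (20.7% against 19.8%), and none held the full element, TGACG followed by TCA (1.77% of all). The Sp1 box GGGCGG was found for 20 of the 29 genes (69% against 35.4%), and TATAAA for none (14.3% of all). All 29 had passed the filter on low counts, whereas the genes in the table were not limited to those that did, so these shares are not of like sets. A direct repeat of AGGTCA with 1 base between the copies was in no window of the 29, and in those of 0.0407% of all genes. *Hadha* and *Hadhb*, which encode the subunits of one enzyme, start head to head with 272 bases between their start sites. These matches are letters in a window and say nothing of binding.

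**Figure D2:**
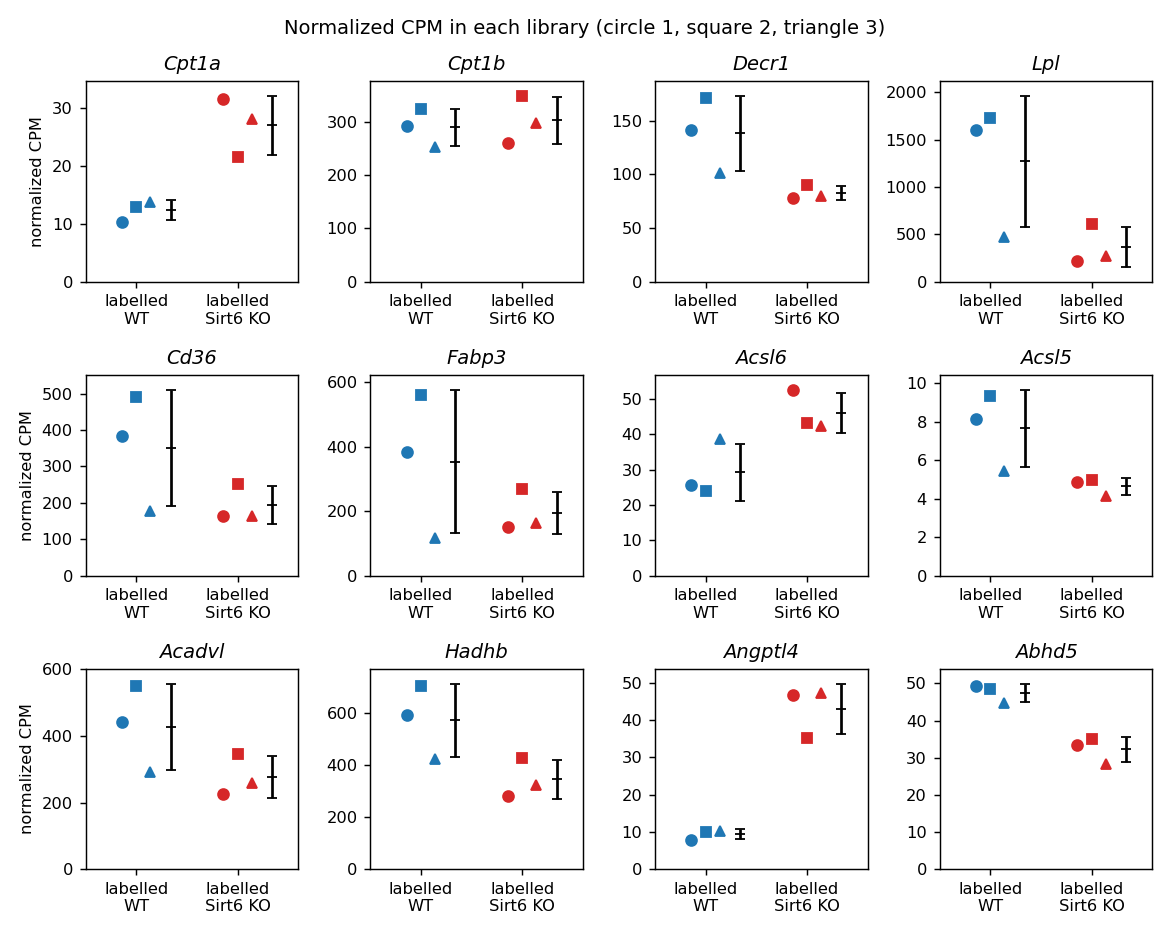
Normalized CPM (y axes, from 0) in each library of 10 of the 35 genes and of *Angptl4* and *Abhd5*, with circle, square and triangle for replicates 1, 2 and 3 and bars for the mean ± SD of 3 libraries. For *Cpt1a* and *Angptl4* all red points (labelled *Sirt6* KO) lie above all blue points (labelled WT), whereas for *Lpl*, *Cd36* and *Fabp3* the blue triangle of WT 3 lies far below WT 1 and WT 2, among the red points for *Lpl* and *Cd36* and below them for *Fabp3*.

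The uptake genes *Lpl*, *Cd36* and *Fabp3* were lower on average in KO, with a wide spread within WT, and none of the 5 uptake genes passed in edgeR. DESeq2 called *Lpl* (adjusted p 0.0301) and *Cd36* (0.0499) lower. *Lpl* (NCBI gene 16956, chr8:68880555-68906932), the lipoprotein lipase, stood at 1607, 1732 and 477 CPM in WT 1 to 3 and at 222, 608 and 268 CPM in KO 1 to 3. WT 3 was below KO 2, so the groups overlapped. The log2 difference was -1.80 (SE 0.56, 95% interval -3.10 to -0.50), and the edgeR adjusted p was 0.0663. It was -2.19 without WT 3 (edgeR adjusted p 0.0135) and -1.52 with the slow-fibre level in the model (edgeR adjusted p 0.00248), within a range of 0.00248 to 0.202 over 15 alternatives. *Cd36* (NCBI gene 12491, chr5:17781690-17888959), the fatty acid translocase, stood at 383, 492 and 177 CPM in WT and at 164, 253 and 164 CPM in KO. Again only WT 1 and WT 2 were above every KO library. Its log2 difference of -0.86 (SE 0.37) had an edgeR adjusted p of 0.14, with a range of 0.0126 to 0.4 over the alternatives.

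*Fabp3*, the heart and muscle fatty acid binding protein, had the highest mean TPM of the 35 genes (934). It stood at 384, 561 and 117 CPM in WT and at 150, 270 and 162 CPM in KO, with WT 3 the lowest library of all. Its log2 difference was -0.87 (SE 0.52, edgeR adjusted p 0.267). The FATP genes did not pass either: *Slc27a1* differed by 0.19 (SE 0.35) and *Slc27a4* by -0.29 (SE 0.13), and for *Slc27a4* all 3 KO libraries, at 9.77 to 11.4 CPM, were below the WT libraries at 11.6 to 13.9 CPM. The summed TPM of the 5 uptake genes was 2717, 3327 and 702 in WT and 747, 1345 and 772 in KO. *Lpl*, *Cd36* and *Fabp3* are also expressed in adipocytes or in capillaries, and no adipocyte or endothelial marker passed in edgeR with the group alone (at an unadjusted p below 0.05, 0 adipocyte and 2 endothelial markers were lower, and DESeq2 called 1 endothelial marker lower). With the slow-fibre level in the model, edgeR called *Adipoq*, *Plin1*, *Cfd*, *Retn* and *Cidec* higher and *Pecam1* and *Tek* lower. Without WT 3 it called *Pecam1*, *Tek*, *Esam* and *Tie1* lower. The 10 adipocyte genes summed to between 2261 and 3036 CPM in WT and between 1516 and 3013 CPM in KO, mostly from *Car3*, which muscle also makes, and *Lep* and *Adrb3* were at 0 in some libraries. *Adipoq* was 7.96, 9.25 and 0.768 CPM in WT and 4.17, 19.0 and 8.33 CPM in KO. The 10 endothelial genes, all detected, summed to 334, 361 and 192 CPM in WT and 249, 250 and 259 CPM in KO. Their part in the levels of the uptake genes was not tested.

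None of the 5 acyl-CoA synthetases passed in edgeR, and the isoforms had differences of both signs. *Acsl1*, the main form of muscle, stood at 331, 389 and 249 CPM in WT and at 209, 350 and 251 CPM in KO, with a log2 difference of -0.26 (SE 0.24, edgeR adjusted p 0.461). *Acsl5*, a form of mitochondria and endoplasmic reticulum, stood at 8.16, 9.35 and 5.43 CPM in WT and at 4.84, 4.97 and 4.14 CPM in KO. *Acsl6*, best known from brain, stood at 25.5, 23.9 and 38.6 CPM in WT and at 52.6, 43.3 and 42.2 CPM in KO. For both genes the groups did not overlap, with *Acsl5* lower and *Acsl6* higher in KO. Neither passed in edgeR, whereas DESeq2 called both (adjusted p 0.0283 for *Acsl5* and 0.0172 for *Acsl6*, within 0.00892 to 0.207 and 0.00654 to 0.192 over all 15 alternatives). The log2 differences were -0.72 (SE 0.22, edgeR adjusted p 0.0672) for *Acsl5* and 0.65 (SE 0.20, edgeR adjusted p 0.0642) for *Acsl6*. *Acsl3* (0.38, SE 0.27) and *Acsl4* (-0.01, SE 0.17) had smaller differences. In TPM, *Acsl1* made up 74.9%, 80.4% and 62.2% of the 5 synthetases in WT and 56.6%, 70.2% and 62.8% in KO. *Acsl6* made up 8.66%, 7.40% and 14.5% in WT and 21.4%, 13.0% and 15.9% in KO. The exact two-sided permutation p values were 0.3 and 0.2, and no isoform share passed after adjustment.

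In the matrix spiral, the dehydrogenases for long and medium chains and the trifunctional protein were lower on average in KO without passing in edgeR, and DESeq2 called *Hadhb* alone of them lower (adjusted p 0.0118). *Acadvl*, the very-long-chain dehydrogenase, stood at 442, 549 and 291 CPM in WT and at 226, 347 and 259 CPM in KO. *Acadm*, the medium-chain dehydrogenase and the most abundant of the 4 per length, stood at 489, 477 and 276 CPM in WT and at 250, 338 and 220 CPM in KO. In both genes WT 1 and WT 2 were the highest libraries, and WT 3 lay below KO 2. The log2 differences were -0.62 for each (SE 0.26 for each), with edgeR adjusted p values of 0.135 for *Acadvl* and 0.134 for *Acadm*. *Acadl*, the long-chain dehydrogenase, differed by -0.81 (SE 0.34). *Acads*, the short-chain dehydrogenase, had the opposite sign at 0.30 (SE 0.20, edgeR adjusted p 0.316). *Hadhb* and *Hadha* encode the thiolase-bearing and the hydratase-bearing subunits of the trifunctional protein. *Hadhb* stood at 590, 700 and 422 CPM in WT and at 282, 426 and 324 CPM in KO, with a log2 difference of -0.73 (SE 0.23, edgeR adjusted p 0.0697). *Hadha* stood at 473, 546 and 318 CPM in WT and at 281, 374 and 301 CPM in KO, with a log2 difference of -0.48 (SE 0.22, edgeR adjusted p 0.16). In each subunit gene only KO 2 was above WT 3. *Hadh* (-0.38), the short-chain hydroxyacyl-CoA dehydrogenase, *Echs1* (-0.16), the short-chain hydratase, and *Acaa2* (-0.27), the mitochondrial thiolase, had smaller log2 differences, and *Echs1* overlaps *Paox*.

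*Decr1* (NCBI gene 67460, chr4:15917240-15945377), the dienoyl-CoA reductase that unsaturated chains need, was the one gene of the 35 that fell in edgeR. It stood at 141, 171 and 101 CPM in WT and at 78.1, 90.2 and 80 CPM in KO, and all KO libraries were below all WT libraries. The means were 138 ± 34.9 and 82.7 ± 6.50 CPM (SD, n = 3 each), 1.66 times the KO level in WT. The log2 difference was -0.74 (SE 0.19, 95% interval -1.18 to -0.29), with an adjusted p of 0.042 by edgeR's quasi-likelihood test. The call held in 6 of 15 alternatives, with adjusted p values from 0.00431 to 0.144. It was lost under the GC correction, in both limma analyses, without the filter on low counts and on leaving out any single library other than WT 3. With any of those libraries left out, 2 to 442 of all genes were called lower. *Eci1*, a Δ3,Δ2-enoyl-CoA isomerase and per length the most abundant auxiliary gene, stood at 110, 125 and 83.5 CPM in WT and at 67.5, 92.2 and 73.6 CPM in KO (log2 difference -0.45, SE 0.18, edgeR adjusted p 0.13). *Eci2*, an isomerase of mitochondria and peroxisomes, differed by -0.14 (SE 0.11).

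None of the 3 electron transfer genes passed in edgeR, and DESeq2 called *Etfa* lower (adjusted p 0.0495). *Etfb*, the most abundant of the 3 genes per length, stood at 148, 179 and 114 CPM in WT and at 148, 182 and 143 CPM in KO. The groups overlapped, with a log2 difference of 0.10 (SE 0.19, 95% interval -0.33 to 0.54). Its sign was negative under the GC correction, without KO 2 and without WT 3. *Etfa* differed by -0.63 (SE 0.24, edgeR adjusted p 0.113). *Etfdh*, the oxidoreductase that hands the electrons to ubiquinone, differed by -0.51 (SE 0.22) and overlaps *Ppid*. The difference between *Etfa* and *Etfb* was not tested. Summed over the 15 genes of the spiral, its auxiliary enzymes and electron transfer, TPM was 4660, 5172 and 2455 in WT 1 to 3 and 2414, 3211 and 2420 in KO 1 to 3. 13 of these 15 genes were lower on average in KO, and WT 3 was at the level of KO 1 and KO 3.

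Thioesterases, malonyl-CoA decarboxylase and the triglyceride lipases had log2 differences from -0.50 to 0.22, and none passed in edgeR with the group alone. *Acot13*, which cleaves long-chain acyl-CoA at the mitochondria, stood at 75.2, 87.1 and 61.8 CPM in WT and at 51.1, 62.6 and 52.9 CPM in KO. KO 2 was just above WT 3. The log2 difference was -0.43 (SE 0.15, edgeR adjusted p 0.0937). *Mlycd*, which removes the malonyl-CoA that inhibits CPT1, differed by 0.12 (SE 0.12). *Acot2*, the matrix thioesterase, ranged from 19.5 to 60.9 CPM within WT alone, and reads from its close copy *Acot1* could be split between them, so its value is uncertain. *Pnpla2*, the adipose triglyceride lipase, stood at 196, 273 and 218 CPM in WT and at 142, 264 and 213 CPM in KO, with a log2 difference of -0.15 (SE 0.24, edgeR adjusted p 0.682) whose sign was positive without KO 1. *Lipe*, hormone-sensitive lipase, differed by 0.22 (SE 0.18) and *Mgll*, monoglyceride lipase, by -0.50 (SE 0.29).

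**Figure D3:**
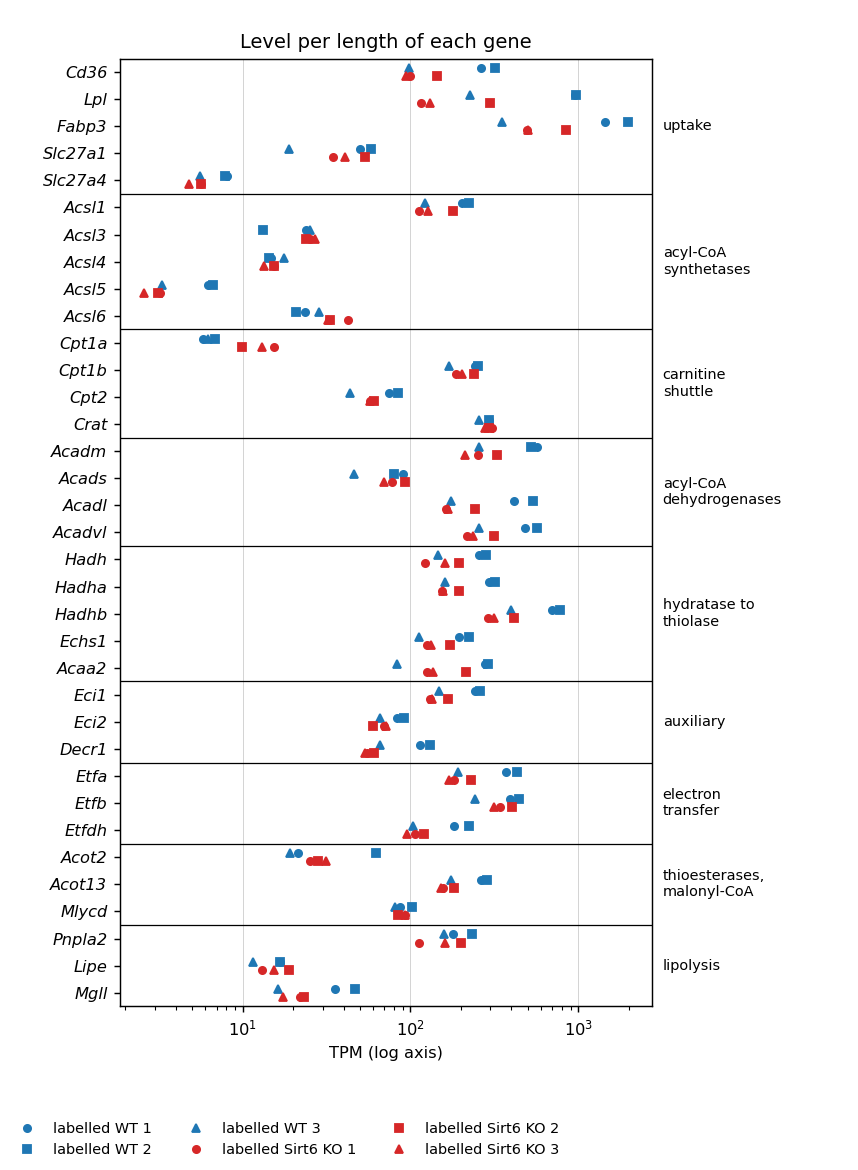
Level per length of each of the 35 genes in the 6 libraries, in TPM on a log axis (x), with blue symbols for libraries labelled WT and red for those labelled *Sirt6* KO, and circle, square and triangle for replicates 1, 2 and 3. Means over the libraries ran from 4.19 TPM for *Acsl5* to 934 TPM for *Fabp3*, and the blue triangle of WT 3 lies with the red symbols for most uptake and oxidation genes.

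Most of the 35 genes shared 1 ranking of libraries within the groups. WT 3 was the lowest WT library in 27 of them (77.1%, against 37.4% of all genes tested), and KO 2 was the highest KO library in 29 (82.9% against 36.1%). Both held in 26 genes (74.3% against 19.1%). The libraries of the groups did not overlap in 3 genes that were lower in KO (*Slc27a4*, *Acsl5* and *Decr1*, 8.57% against 19.6% of all genes) and in 3 that were higher (*Acsl6*, *Cpt1a* and *Crat*, 8.57% against 20.3%). In the other 29 they overlapped. The summed slow-fibre level was likewise lowest in WT 3 of the WT libraries and highest in KO 2 of the KO libraries.

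**Figure D4:**
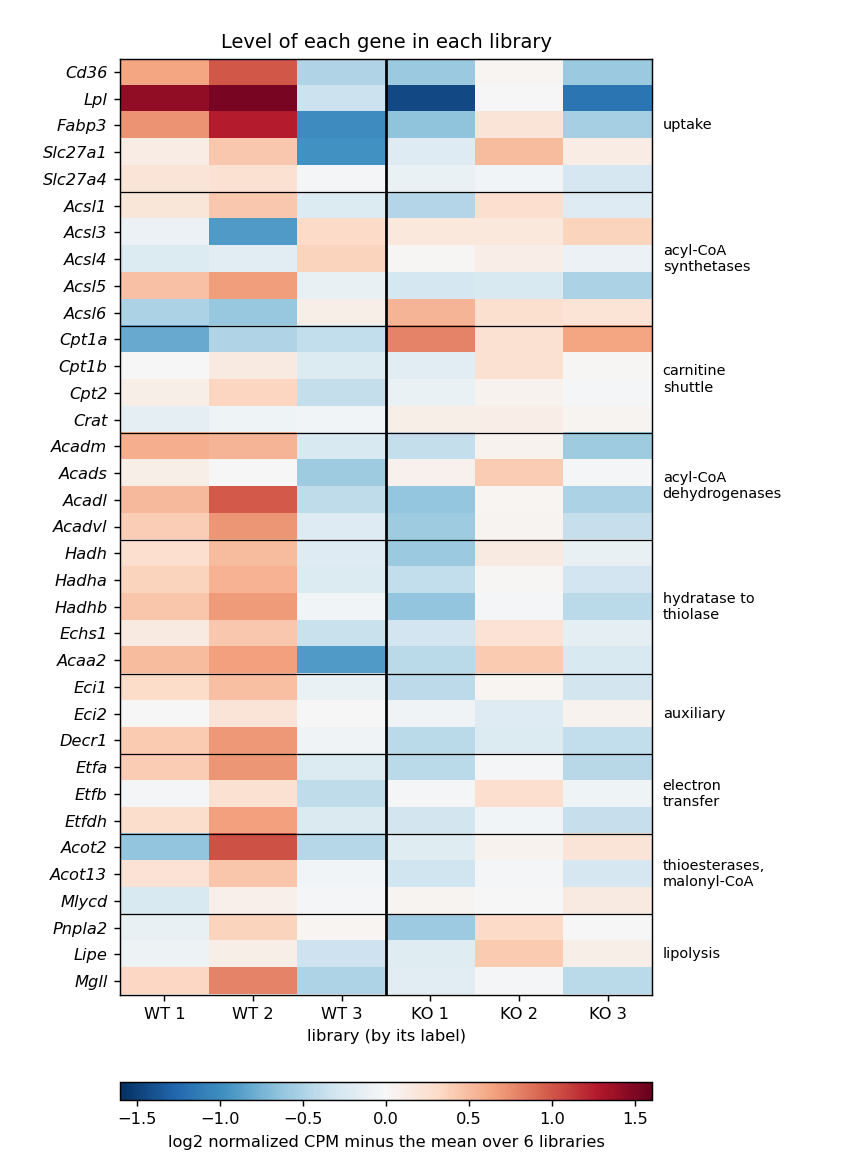
Level of each of the 35 genes (rows, by step) in each library (columns, by label), as log2 normalized CPM minus the gene's mean over the 6 libraries, with red above and blue below that mean. WT 1 and WT 2 are red in most rows from *Cd36* to *Mgll*, WT 3 is the lowest WT library in 27 rows and KO 2 the highest KO library in 29, while *Cpt1a* and *Acsl6* run the other way.

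The slow-fibre level was then added as a covariate, as the mean log2 CPM of the 10 slow-fibre genes. With it, 13 of the 35 genes were lower and 3 higher in KO at an edgeR adjusted p below 0.05. That is 37.1% and 8.57%, against 14.9% and 14.7% of all genes in the same model. The lower genes were *Lpl*, *Cd36*, *Acsl5*, *Acadm*, *Acadl*, *Acadvl*, *Hadha*, *Hadhb*, *Eci1*, *Decr1*, *Etfa*, *Etfdh* and *Acot13*, and the higher ones *Cpt1a*, *Acsl6* and *Acads*. In 15 of these 16 genes the difference itself was smaller than with the group alone, and in all 16 the standard error was smaller. *Hadhb* had a log2 difference of -0.65 (edgeR adjusted p 0.00836) and *Acadm* one of -0.50 (edgeR adjusted p 0.0121), and over all 15 alternatives their adjusted p values ran from 0.00836 to 0.307 and from 0.0121 to 0.348. Without WT 3, 15 were lower and 2 higher (42.9% and 5.71%, against 15.7% and 16.7% of all genes). WT 3 was the lowest WT library in 27 of the 35, so leaving it out raised the WT mean in those genes and made lower calls more likely. All 13 genes called lower with the covariate were among the 15 called lower without WT 3, and *Fabp3* and *Mgll* were the other 2. The slow-fibre level was also lowest in WT 3, so these fits are not independent of each other. On leaving out any of the other 5 libraries, no gene of the 35 was called lower, and none was called in all 6 fits that left out 1 library. Called lower of all genes were 2 of 14084 without KO 1 and 5 of 14115 without KO 3. Without WT 2, WT 1 and KO 2 they were 153 of 14019, 259 of 13990 and 442 of 14069. The number of the 35 genes that fell thus ran from 0 to 15, depending on which library was left out, and that of all genes from 2 to 2219. At an unadjusted p below 0.05, the 5 edgeR fits that left out a library other than WT 3 held 2 to 12 lower genes of the 35. That is 5.71% (without KO 3 or WT 2) to 34.3% (without KO 2). Of all genes, between 1738 of 14115 (without KO 3) and 2217 of 14069 (without KO 2) were lower at that level. After a correction for GC content, none fell and *Cpt1a* alone rose in edgeR, against 3.61% and 3.43% of all genes. In that fit 9 of the 35 (25.7%) were lower at an unadjusted p below 0.05, against 1986 of all 13271 genes. 17 of the 35 genes passed in neither the group comparison nor any alternative, and the matching share of all genes was not counted.

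The 69 further genes of the pathway were lipoprotein and carnitine transport, other mitochondrial oxidation, peroxisomal oxidation, droplets and fuel selection. 64 of them could be tested, of which 3 fell and 2 rose in edgeR (4.69% and 3.12%, against 8.39% and 7.85% of all genes). 37 were lower and 27 higher by sign (57.8% lower against 51.6% of all genes), with a median log2 difference of -0.08. The groups did not overlap in 5 that were lower and 10 that were higher (7.81% and 15.6%, against 19.6% and 20.3% of all genes). *Angptl4*, a secreted protein that inhibits lipoprotein lipase, had the lowest p of them. It stood at 7.94, 10.1 and 10.4 CPM in WT and at 46.6, 35.2 and 47.1 CPM in KO. The log2 difference was 2.18 (SE 0.17), 4.54 times the WT level, with an adjusted p of 0.00873 by edgeR's quasi-likelihood test, and it was the one gene called in all 6 fits that left out 1 library. *Abhd5*, the co-activator of adipose triglyceride lipase, fell, with 49.3, 48.5 and 44.7 CPM in WT and 33.5, 34.9 and 28.4 CPM in KO (log2 difference -0.56, SE 0.11, edgeR adjusted p 0.0225). Both genes bear on lipolysis, through an inhibitor outside the fibre and an activator at the droplet. *Angptl4* and *Abhd5* were among the 15 genes whose groups did not overlap.

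The remaining 3 were mitochondrial or thioesterase genes. *Acadsb*, the dehydrogenase for short branched acyl-CoA, fell from 134, 141 and 128 CPM in WT to 104, 102 and 96.8 CPM in KO (log2 difference -0.42, SE 0.10, edgeR adjusted p 0.0342). *Them4*, a mitochondrial thioesterase, fell from 12.9, 13.3 and 9.56 CPM to 4.22, 7.42 and 4.98 CPM (log2 difference -1.10, SE 0.24, edgeR adjusted p 0.0272). *Acot7*, a thioesterase best known from brain, rose from 15, 14.7 and 13.8 CPM to 18.5, 22.8 and 22.4 CPM (log2 difference 0.55, SE 0.12, edgeR adjusted p 0.0272). *Abhd5*, *Acadsb*, *Acot7* and *Them4* lost their calls under the GC correction, where edgeR adjusted p values were 0.0572, 0.262, 0.113 and 0.0613, and each also did on leaving out KO 1, KO 3, WT 1 or WT 2, as did *Acadsb* and *Acot7* without KO 2, with edgeR adjusted p values of up to 0.0996, 0.151, 0.111 and 0.109. By list, 2 of 15 genes of mitochondrial oxidation fell and 1 rose, 1 of 14 droplet genes fell, and 1 of 8 tested uptake and transport genes rose. None of 18 tested peroxisomal genes and none of 9 tested genes of fuel selection was called in edgeR. DESeq2 called 1 peroxisomal gene lower and 2 higher and 2 genes of fuel selection lower, and the counts at an unadjusted p below 0.05 in edgeR were the same.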

How the data were processed

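The data are bulk RNA-seq of 6 gastrocnemius libraries, grouped by their labels. Per the labels, the submitters' processing notes name bcl2fastq 2.20.0, FastQC 0.11.7, HISAT2 2.1.0, Bowtie2 2.3.4.1 and StringTie 2.1.3b. STAR is named in the reporting summary, and TruSeq kits differ between labels (stranded) and methods. The counts per gene deposited by the authors are whole numbers without normalization. The FPKM values and the TPM values deposited by the authors are scaled to gene length and depth. No columns were left unmapped.

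Counts were tested in R 4.3.3 with edgeR 4.0.16: filterByExpr (13801 of 24532 genes), TMM factors (0.909 to 1.11), a quasi-likelihood fit on the group, and Benjamini-Hochberg adjustment over all genes tested at 0.05. The common biological coefficient of variation was 24.1%. Levels are normalized CPM. Standard errors and 95% intervals derive from the test. TPM served comparisons between genes, and isoform shares were compared by exact permutation tests. With 3 animals per group, p values measure the spread between these animals. The script was tested on simulated data.

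The alternatives were DESeq2 1.42.0, its size factors alone, omission of the filter, a minimum of 10 counts per gene in each of the libraries, limma 3.58.1 after quantile normalization of log2 FPKM (pseudocount 1 or 0.1) and a block for the replicate number. They also held the slow-fibre level as a covariate, taken as the mean log2 CPM of the 10 slow-fibre genes. The last were a lowess correction for transcript GC content (span 0.3, GENCODE M21, known for 96.2% of genes tested) and leaving out each library. Named with the value in every library were genes with an adjusted p below 0.05, the gene of each step with the highest TPM, and *Cpt1b*, *Cpt1a*, *Cd36*, *Lpl*, *Pnpla2* and *Acadvl*. *Acsl5*, *Acsl6*, *Hadha*, *Adipoq*, *Myh7*, *Cd14* and *Hbb-bt* were added after their values were seen. The genes and lists were chosen with earlier results of these data known.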

Additional observations from a re-analysis of the deposited data

How the results depend on the processing

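The lower calls among the 35 genes depended on the processing. DESeq2 called 6 lower and 2 higher (*Acsl5*, *Cd36*, *Decr1*, *Etfa*, *Hadhb* and *Lpl*, and *Acsl6* and *Cpt1a*), and of the other pathway genes 8 and 5, with 1732 lower (12.4%) and 1667 higher (12%) of all genes, against 17.1% and 5.71% of the 35. The slow-fibre covariate gave 13 and 3, 9 and 8 of the other pathway genes, and 2060 and 2026 of all genes. The GC correction gave 0 lower and 1 higher of the 35, 0 and 1 of the other pathway genes, and 479 and 455 of all genes. Both limma analyses and the fit with no filter on low counts gave 0 lower of the 35. Of all 17190 genes in each, limma called 983 lower (pseudocount 0.1) and 923 lower (pseudocount 1), and the fit with no filter 896. Leaving out 1 library gave 0 to 15 lower and 0 to 2 higher of the 35, 0 to 11 and 1 to 5 of the other pathway genes, and 2 to 2219 and 6 to 2363 of all genes. The highest counts came without WT 3, and the lowest over all genes without KO 1. Of the genes given with the value in every library, signs reversed under the GC correction for *Crat* (-0.00137), *Etfb* (-0.12) and *Cpt1b* (-0.10), without KO 2 for *Etfb* (-0.000553) and *Cpt1b* (-0.04), without WT 3 for *Etfb* (-0.05) and *Cpt1b* (-0.02), and without KO 1 for *Pnpla2* (0.06). Of the others of the 35, *Slc27a1*, *Acsl4* and *Mlycd* also changed sign under the GC correction, *Slc27a1* without KO 2 and without WT 3, *Acsl4* without KO 3 and without WT 3, *Cpt2*, *Echs1* and *Acot2* without WT 2, *Cpt2* with the covariate, *Acsl4* and *Acot2* in limma and with the replicate block, and *Acsl4* in DESeq2 and with no filter. With 1 library left out, log2 differences ran from -0.05 to 0.27 for *Etfb*, from -0.36 to 0.06 for *Pnpla2* and from -0.04 to 0.16 for *Cpt1b*. The difference in the *Acsl4* share, 0.336 percentage points, ran from -0.333 to 1.54 and was -0.198 without WT 1, -0.333 without WT 2 and -0.122 without KO 1. The cause was not tested. The replicate numbers were not taken to pair the animals, since the deviations of same-numbered libraries correlated at -0.106, 0.26 and 0.161 and KO 1 correlated best with WT 3. With the replicate block, 2 of the 35 were lower, *Decr1* and *Lpl* (edgeR adjusted p 0.0493 for *Lpl*), against 1018 of all 13801 genes. *Acadsb* was not called there. Limma on FPKM called 983 lower and 1191 higher of all genes with a pseudocount of 0.1, and 923 and 1154 with 1, against 1158 and 1084.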

Other observations

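*Hbb-bt*, a β-globin gene, stood at 55.5, 52.1 and 0 CPM in WT 1 to 3 and at 0, 31.5 and 0 CPM in KO 1 to 3. *Hbb-bt* shares most of its sequence with other globin genes, so its counts are uncertain. The 10 macrophage genes summed to 107, 41.4 and 46.3 CPM in WT and to 59.8, 50.4 and 55.2 CPM in KO, and 1 of them passed in edgeR. This was *Cd14*, a co-receptor for lipopolysaccharide, at 3.13, 2.42 and 2.53 CPM in WT and 1.44, 1.17 and 1.02 CPM in KO (log2 difference -1.15, SE 0.24, edgeR adjusted p 0.0233). The 10 fibroblast genes summed to 1148, 873 and 655 CPM in WT and to 846, 779 and 832 CPM in KO, and none passed in edgeR with the group alone (2 were lower and 1 higher at an unadjusted p below 0.05, and DESeq2 called 2 lower). With the slow-fibre covariate, edgeR called *Dcn* and *Mfap5* lower.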
